A study of Mus musculus with 2 samples.

Results

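Interleukins are the secreted proteins through which immune cells and stromal cells signal to each other, and this account covers the interleukin genes and the genes of their receptors in 2 stages of early mouse B cell development. Genes were taken by name, as protein-coding RefSeq transcripts whose mouse gene symbol is Il followed by a digit, without *Il7r*, *Il2rg*, *Il3ra* and *Il6ra*. This gave 77 genes (104 transcripts) among the 20250 protein-coding genes measured. They were 35 receptor chains, 36 ligands, 4 secreted inhibitors (*Il1rn*, *Il1f5*, *Il18bp*, *Il22ra2*) and 2 genes of the enzyme interleukin 4 induced 1 (*Il4i1*, *Il4i1b*).

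Total RNA was sequenced from *Ebf1* -/- pre-pro-B cells (1 library) and *Rag2* -/- pro-B cells (1 library), both on the C57BL/6 background. The pre-pro-B cells came from female embryonic livers and the pro-B cells from adult male bone marrow, so that stage cannot be told apart from genotype, sex, age and tissue, nor from the factors added to the cultures. Both were grown on OP-9 cells, a mouse stromal line, with Il-7 at 5 ng/mL, and the pre-pro-B cells also received Scf and Flt3l at 10 ng/mL each. Values are FPKM, fragment counts scaled by transcript length and by library size, and a gene's FPKM is the sum over its transcripts. Where a gene is given with a pair of values, the pre-pro-B library comes first. With 1 library per stage no difference has a replicate check and no test was made. In bulk RNA, fewer cells of a type and less RNA per cell cannot be told apart. At the sequencing depth that the labels give, about 90000000 reads in each library, 3 fragments, the level that a count of 0 allows, correspond to an FPKM of 0.0134 for the *Il18rap* transcript and 0.0262 for the shorter *Il12a* transcript.

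Of the targeted genes, *Ebf1* had 64.0 FPKM in the *Ebf1* -/- library and 273 in the *Rag2* -/- library, and *Rag2* had 34.5 and 22.9, so neither was absent where it was targeted. Values of whole transcripts do not show whether a deleted exon is missing from them. All 8 B lineage genes examined, among them *Pax5* (1.13 and 239 FPKM), were higher in pro-B cells, and the progenitor genes *Kit*, *Flt3* and *Cd34* were higher in pre-pro-B cells. Markers of other lineages also moved. Of 8 T or NK cell genes 6 (75%) were higher in pre-pro-B cells at 2-fold on log2(FPKM + 1), where 9.94% of all genes were. The list summed to 465 against 6.06 FPKM. Of the pre-pro-B sum *Klrd1*, an NK cell receptor chain, held 353, *Lck* 38.0, *Cd3g* 36.8 and *Nkg7* 31.3. *Cd3e* was at 0.239 and *Ncr1* at 1.90 in pre-pro-B cells. Of 8 myeloid genes, 5 (62.5%) were higher in pre-pro-B cells at 2-fold, against 9.94% of all genes. The summed FPKM of this list was 527 against 7.91. *Tyrobp*, an adaptor shared by myeloid and NK cells, held 463 of the 527, *Mpo* had 35.7 and 0.122, and *Elane* was listed at 0 in both. The 6 mast cell or basophil genes summed to 10.6 and 0.122, of which *Cpa3* held 10.5 and 0.0296. *Mcpt8*, *Ms4a2*, *Fcer1a* and *Prss34* were at 0 in both. The 12 stromal genes summed to 24.0 and 25.7, of which *Pdgfrb* held 15.9 and 0.377, and *Dcn* was at 0 in both. The part of these other lineages in the values below was not tested.

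Most interleukin receptors are pairs of chains, one that gives specificity for the ligand and one that is often shared between receptors. Chains of the cytokine receptor type, such as Il2rb and Il12rb2, signal through Jak kinases and Stat factors. Chains of the IL-1 type, such as Il1r1, Il18r1 and Il18rap, signal through the adaptor Myd88 and Irak kinases. Interleukin 7, whose receptor uses the shared gamma chain Il2rg, is the factor that sustains mouse B cell progenitors, and receptors for IL-12, IL-15 and IL-18 are best known from NK and T cells.

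Receptor chains and ligands differed in how many were detected. A level of 1 FPKM or more in either library was reached by 18 of 35 receptor chains and by 3 of 36 ligands, against 52.0% of all protein-coding genes. In the pre-pro-B library 16 receptor chains reached it, where 49.5% of all genes did. In the pro-B library 7 reached it, where 46.2% of all genes did, and 5 were at this level in both. Listed at 0 in both libraries were 21 ligands (58.3%) and 4 receptor chains (11.4%), against 28.9% of all genes. The summed FPKM of the receptor chains was 567 at the pre-pro-B stage and 60.7 at the pro-B stage, and that of the ligands was 235 and 53.7. Differences were counted on the log2(FPKM + 1) scale, which understates the change of low genes, at a threshold of 2-fold. On this scale 12 of 35 receptor chains (34.3%) were lower in pro-B cells, where 9.94% of all genes were. Higher in pro-B cells were 2 receptor chains (5.71%), against 6.34% of all genes. Of the ligands, 2 of 36 were lower and 0 were higher. With a pseudocount of 0.1 in place of 1, 20 receptor chains were lower and 3 ligands were higher. The share of all genes was not counted at 0.1, so these counts cannot be set against the shares above. The median log2 difference, pro-B minus pre-pro-B, was -0.41 over all receptor chains, 0 over all ligands and 0 over all genes.

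**Figure D1:**
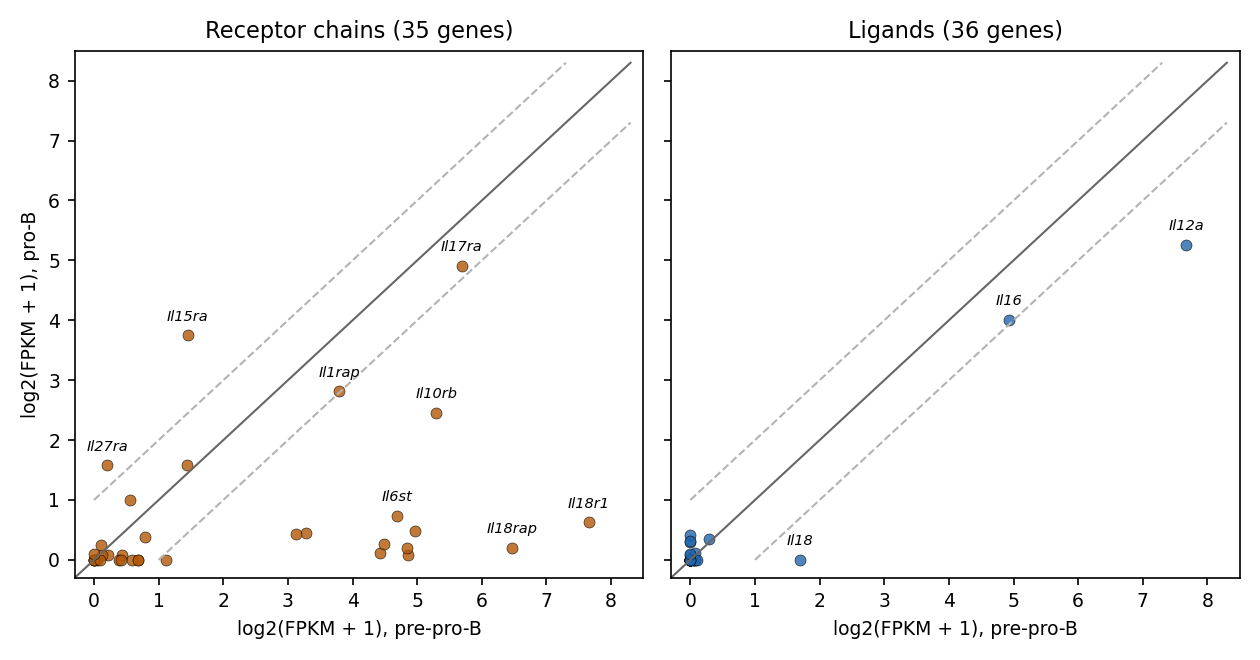
Each point is 1 gene, with log2(FPKM + 1) in pre-pro-B cells on the x axis and in pro-B cells on the y axis, 35 receptor chains on the left and 36 ligands on the right. The solid line marks equal values and the dashed lines a 2-fold difference; 12 receptor chains lie below the lower dashed line and 2 above the upper one, while 33 ligands sit at less than 1 FPKM in both libraries.

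Among the 35 receptor chains, those of the IL-18 receptor had the highest FPKM in pre-pro-B cells. *Il18r1*, the ligand-binding chain (chromosome 1 of mm9, 40522397 to 40557699, plus strand), had 201 FPKM at the pre-pro-B stage and 0.546 at the pro-B stage. *Il18rap*, the accessory chain (40572207 to 40606142), had 87.2 and 0.148. Together these chains made up 50.7% of the summed receptor FPKM at the pre-pro-B stage and 1.14% at the pro-B stage. The log2 differences were -7.03 and -6.26. The pro-B value of *Il18rap* is worth about 33.0 fragments at the depth in the labels, above the level that a count of 0 allows. *Il18r1* was divided among 3 transcripts. NM_008365 (4158 bases) had 126 FPKM (Cuffdiff's 95% model interval 4.25 to 274) at the pre-pro-B stage and 0.405 at the pro-B stage (interval 0 to 1.21). The shorter NM_001161843 (1793 bases) had 69.1 (interval 0 to 246) and 0.141. The ligand *Il18* itself was low, at 2.26 FPKM at the pre-pro-B stage (interval 0 to 6.98), and was at 0 in the pro-B library. The gene of the secreted inhibitor *Il18bp*, which binds free IL-18, had 1.65 and 1.89.

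**Figure D2:**
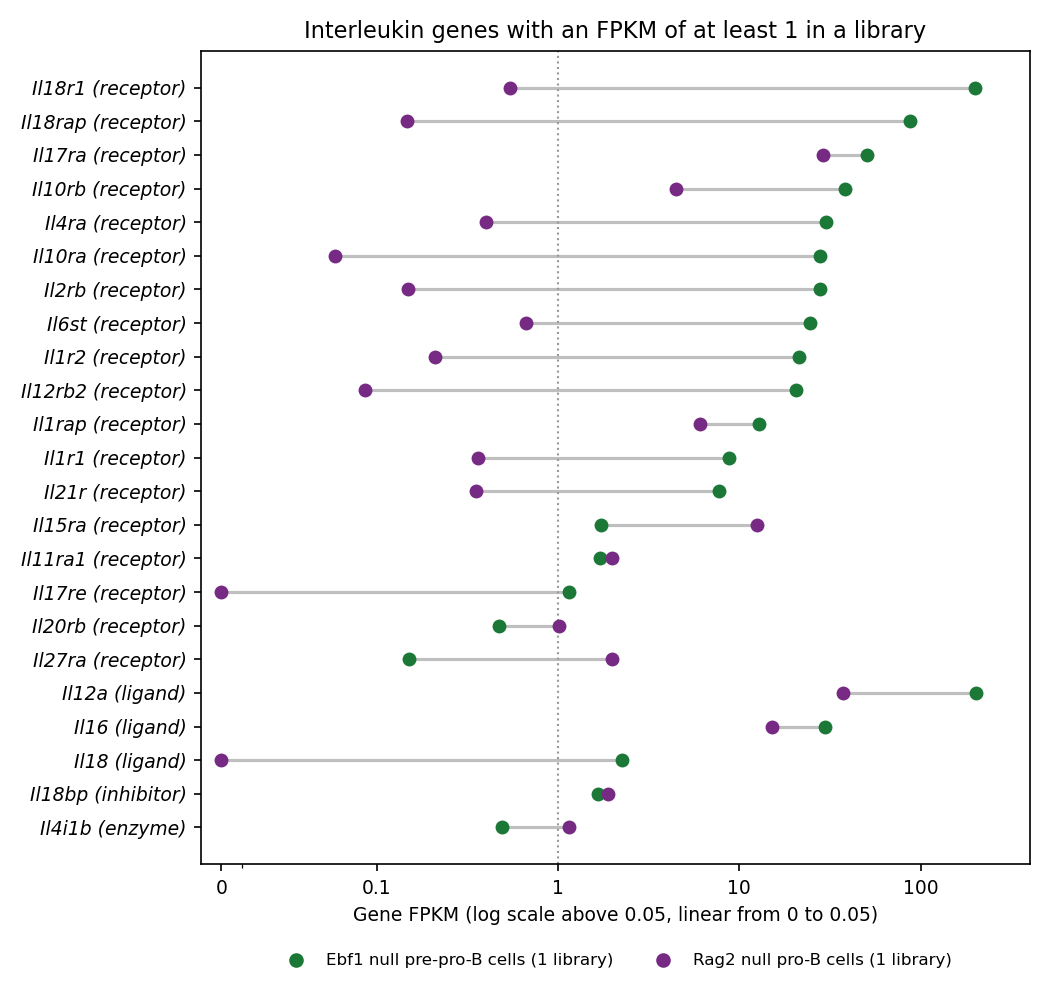
Gene FPKM (x axis, logarithmic above 0.05) of the 23 interleukin genes that reached 1 FPKM, with 1 point per library and a line joining the libraries. Green points of pre-pro-B cells lie to the right of purple points of pro-B cells for most receptor chains, most widely for *Il10ra*, *Il12rb2*, *Il18r1* and *Il18rap* among those above 0 in both, and to the left for *Il15ra* and *Il27ra*, among others.

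The IL-18 receptor genes lie in a run of 6 IL-1 type receptor genes that spans 473 kb of chromosome 1 (mm9, 40133057 to 40606142), all on the plus strand. In chromosomal order, *Il1r2*, a decoy receptor for IL-1, had 21.4 FPKM at the pre-pro-B stage and 0.208 at the pro-B stage. *Il1r1*, the signaling receptor for IL-1, had 8.75 and 0.360. *Il1rl2*, the IL-36 receptor, had 0.506 and was at 0 in the pro-B library, and *Il1rl1*, the IL-33 receptor, had 0.350 and 0.0569. All 6 genes of the run thus had the higher FPKM in pre-pro-B cells, where 8135 of all 20250 genes did. At 2-fold 4 of the 6 were lower in pro-B cells, against 9.94% of all genes. *Il1rl2* and *Il1rl1* were below 1 FPKM in both libraries. *Il1rl1* lies directly before *Il18r1*, which starts 138 bases after its end, and the ratio of *Il18r1* to *Il1rl1* FPKM was 573 in pre-pro-B cells. The neighbouring genes differed from the run. *Map4k4*, the nearest gene before it, had 58.5 FPKM at the pre-pro-B stage and 99.1 at the pro-B stage, and *Slc9a4* and *Slc9a2* after it were listed at 0 in both.

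**Figure D3:**
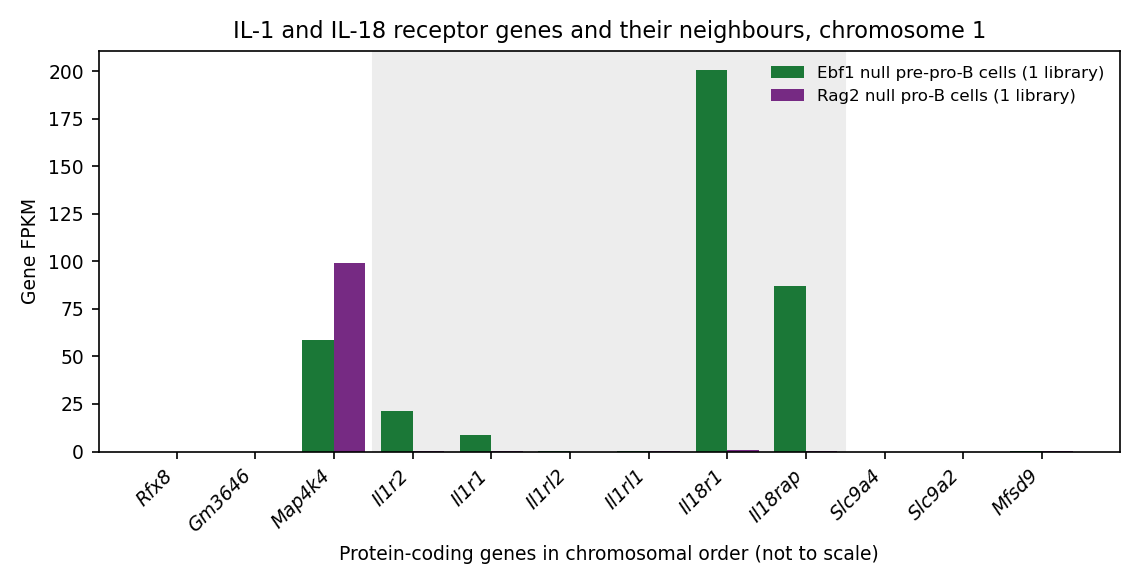
Gene FPKM (y axis) of the 6 IL-1 type receptor genes (shaded) and of the 3 protein-coding genes on each side, in chromosomal order, as 1 bar per library. *Il18r1* reaches 201 and *Il18rap* 87.2 in pre-pro-B cells, while *Il1rl2* and *Il1rl1* between *Il1r1* and *Il18r1* stay below 1, and *Map4k4* is at 58.5 and 99.1.

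The shared IL-1 accessory chain *Il1rap* lies elsewhere, on chromosome 16, and fell short of the threshold, with 12.8 FPKM at the pre-pro-B stage and 6.04 at the pro-B stage (log2 difference -0.97). It passed 2-fold with a pseudocount of 0.5 (-1.03) or 0.1 (-1.07), after scaling to TPM (-1.14) and for its most abundant transcript alone (-1.15). With median-ratio scaling it stayed short of 2-fold (-0.90). Its longest transcript, NM_008364, held 84.0% of the gene's FPKM at the pre-pro-B stage and 71.4% at the pro-B stage, and the shorter NM_134103 held 15.8% and 28.6%. The ligands *Il1a* and *Il1b* were at 0.0232 and 0 in pre-pro-B cells and were at 0 in the pro-B library.

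Of 6 receptor chains that belong with the shared gamma chain, 3 (50%) were lower in pro-B cells, against 9.94% of all genes. Higher in pro-B cells was 1 (16.7%), against 6.34% of all genes. *Il2rb*, the signaling chain for IL-2 and IL-15, had 27.8 FPKM (interval 2.55 to 62.9) at the pre-pro-B stage and 0.150 at the pro-B stage (interval 0 to 0.616). *Il4ra*, the chain that binds IL-4, had 30.1 (interval 1.37 to 72.3) and 0.403 (interval 0 to 1.42), and *Il21r*, its neighbour on chromosome 7, had 7.76 and 0.353. *Il2rg* itself had a gene FPKM of 83.3 and 32.3, a log2 difference of -1.34, and *Il7r* had 349 and 424. *Il2ra*, the high-affinity chain for IL-2, and *Il9r* stayed below 1 in both libraries. Of the 8 T or NK cell genes, 6 (75%) were higher in pre-pro-B cells, against 9.94% of all genes, together with these chains and those for IL-18 and IL-12. The part of T or NK cells in these values was not tested.

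*Il15ra*, the chain that binds and presents IL-15, went the other way, with a log2 difference of 2.30. Its FPKM was 1.74 at the pre-pro-B stage and 12.4 at the pro-B stage, summed over 7 transcripts. NM_133836 held 74.2% of the gene's FPKM at the pre-pro-B stage and 67.6% at the pro-B stage, where its FPKM was 8.41 (interval 0.0543 to 20.6) against 1.29 (interval 0 to 3.83). These intervals overlap. Of the chains of the IL-15 receptor, *Il15ra* was thus higher in pro-B cells while *Il2rb* and *Il2rg* were lower, and the ligand *Il15* was listed at 0 in both libraries. *Il15ra* lies beside *Il2ra* on chromosome 2 (11626920 to 11655612 and 11564419 to 11614821 of mm9), and *Il2ra* had 0.719 at the pre-pro-B stage and 0.308 at the pro-B stage.

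Of the 4 chains of the gp130 group 1 was lower in pro-B cells and 1 was higher, against 9.94% and 6.34% of all genes. *Il6st*, which encodes gp130, the signaling chain shared by the receptors for IL-6, IL-11 and IL-27, had 24.6 FPKM (interval 0.761 to 48.7) at the pre-pro-B stage and 0.668 at the pro-B stage (interval 0 to 1.85). *Il27ra*, its partner for IL-27, had 0.150 (interval 0 to 0.511) and 1.99 (interval 0.0115 to 5.04), the only other receptor chain counted as higher in pro-B cells. *Il11ra1* had 1.70 and 1.99. Its value is uncertain, as mouse has a near-identical copy, *Il11ra2*, which was not analysed here. *Il6ra* had a gene FPKM of 3.07 and 0.0218. Of the ligands of this group, *Il6*, *Il11* and *Il31* were listed at 0 in both libraries, and *Il27* was at 0.0463 and 0.

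Of the IL-12 receptor chains, *Il12rb2* had 20.5 FPKM (interval 1.35 to 46.4) at the pre-pro-B stage and 0.0864 at the pro-B stage (interval 0 to 0.335), the latter worth about 22.9 fragments. *Il12rb1*, with which it forms the IL-12 receptor, had 0.608 and was at 0 in the pro-B library, and *Il23r*, the neighbour of *Il12rb2* on chromosome 6, had 0.0703 and 0. RNA of both chains of the IL-10 receptor was detected in the pre-pro-B library, which does not show them in the same cells. *Il10ra*, the ligand-binding chain, had 27.9 FPKM (interval 1.14 to 74.6) there and 0.0585 (interval 0 to 0.283) at the pro-B stage. *Il10rb*, a chain shared with other class II cytokine receptors, had 38.3 and 4.47, and so kept a gene FPKM above 1 in pro-B cells. *Il20rb* was at 0.473 and 1.01, and *Il10*, *Il20*, *Il22* and *Il24* were listed at 0 in both libraries.

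*Il17ra*, the common chain of the IL-17 receptors, had the highest FPKM of the 35 receptor chains in pro-B cells, below *Il7r* and *Il2rg*, which are not among them. Its FPKM was 29.1 there and 50.5 in pre-pro-B cells, within 2-fold, and it held 47.9% of the summed receptor FPKM in pro-B cells. *Il17re* had 1.15 in the pre-pro-B library and was listed at 0 in the pro-B one. The other partner chains, *Il17rb*, *Il17rc* and *Il17rd*, stayed below 0.2 in both libraries. *Il5ra* and *Il13ra1* were below 0.2 as well. In all, 17 receptor chains stayed below 1 in both libraries, with at most 0.719 in pre-pro-B cells (*Il2ra*) and 0.308 in pro-B cells (*Il2ra*).

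Among the ligands, *Il12a*, the p35 subunit of IL-12, stood alone in its level. Its gene (chromosome 3 of mm9, 68494566 to 68502469) had the highest FPKM of all 77 genes in either library, 203 at the pre-pro-B stage and 37.3 at the pro-B stage, a log2 difference of -2.41. It made up 86.2% of the summed ligand FPKM at the pre-pro-B stage and 69.5% at the pro-B stage. NM_008351 carried 100% and 97.4% of the gene's FPKM, with intervals of 19.8 to 390 and of 1.47 to 71.5, which overlap. IL-12 is made only where p35 pairs with the p40 subunit. The transcript at the *Il12b* locus, which encodes p40 (NM_008352, chromosome 11, 44213565 to 44227519), was listed at 0 in both libraries, and it is not among the 77 genes because the gene table gave its accession no symbol. *Ebi3*, which pairs with p35 in IL-35, had 1.57 FPKM at the pre-pro-B stage and was at 0 in the pro-B library. *Il23a*, the partner of p40 in IL-23, was at 0.0493 and 0.0807.

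*Il16*, made as a cytoplasmic precursor in many lymphocytes, had 29.6 FPKM at the pre-pro-B stage and 15.1 at the pro-B stage. Its log2 difference of -0.93 was short of the threshold. *Il16* passed it after scaling to TPM (-1.05) and stayed short of it with median-ratio scaling (-0.84) or a pseudocount of 0.1 (-0.97). With *Il18*, these were the 3 ligands to reach an FPKM of 1. The other 33 ligands had at most 0.217 in pre-pro-B cells (*Il5*) and at most 0.331 in pro-B cells (*Il33*). *Il7*, supplied to both cultures as protein, was at 0 in the pre-pro-B library and had 0.0762 FPKM at the pro-B stage, and *Il33* was at 0 in the pre-pro-B library. Beside these values, 4 of the 12 stromal genes (33.3%) were higher in pro-B cells at 2-fold, against 6.34% of all genes, for example *Fn1* (1.16 and 5.16). Of the others, 1 was lower (*Pdgfrb*) and 7 were within 2-fold. The part of stromal cells in the *Il7* and *Il33* values was not tested. The chromosomal groups of ligand genes were low throughout. *Il4* and *Il13* were listed at 0 in both libraries and *Il5* beside them was at 0.217 and 0.269, while *Il2* and *Il21* on chromosome 3 were at 0 in both. In all, 14 such groups of neighbouring interleukin genes, at most 200 kb apart, held 39 of the 77 genes. *Il4i1b* had 0.492 and 1.15. Its locus overlaps other genes, among them *Nup62*, so its reads may have been divided among them.

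Model intervals were wide for most of these transcripts. Of the 104 transcripts, the intervals of 5 did not overlap between the libraries with the lower value in pro-B cells, where 1.45% of all protein-coding transcripts had this, and those of 0 did so in the other direction, against 0.678%. The 5 were transcripts of *Il10ra*, *Il12rb2*, *Il18r1*, *Il18rap* and *Il2rb*. These intervals come from Cuffdiff's model of 1 library each and do not hold the spread between cultures.

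**Figure D4:**
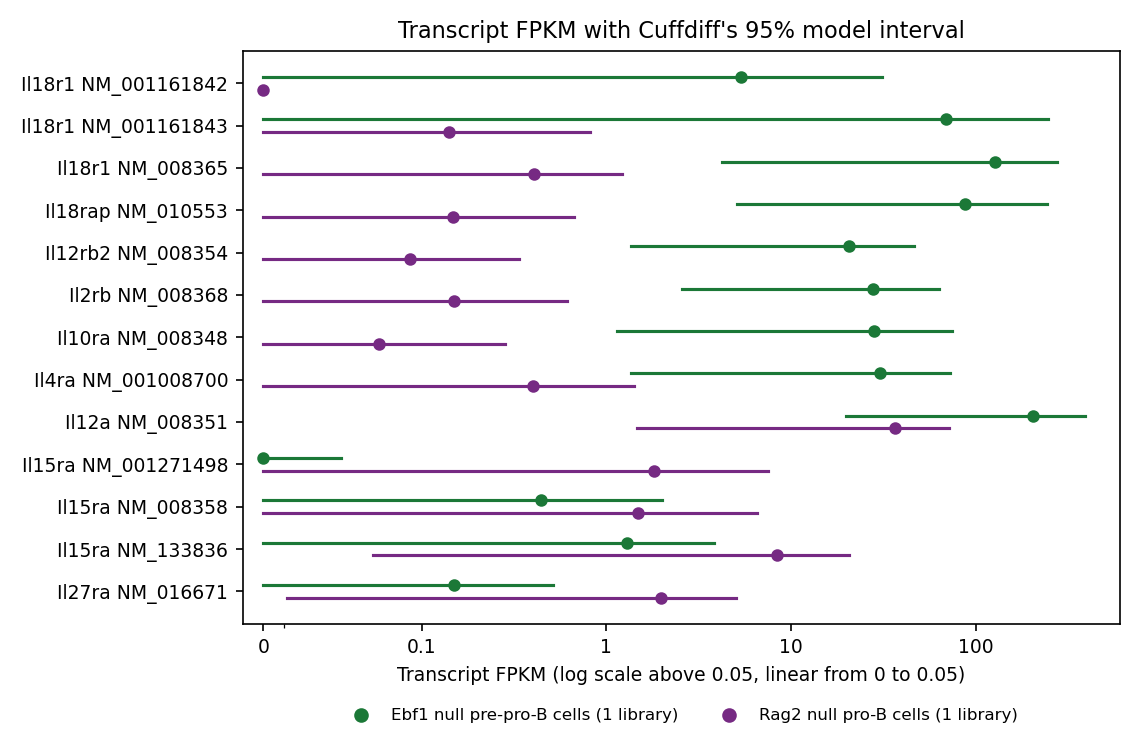
Transcript FPKM (x axis, logarithmic above 0.05) with Cuffdiff's 95% model interval as a line, green for pre-pro-B and purple for pro-B cells, for transcripts that reached 1 FPKM from a selection of the genes described. The intervals are apart for 1 transcript each of *Il18r1*, *Il18rap*, *Il12rb2*, *Il2rb* and *Il10ra*, and overlap for *Il4ra*, *Il12a*, *Il15ra* and *Il27ra*.

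As examples, the 250 bases before the start site are given for *Il18rap*, *Il12rb2*, *Il15ra* and *Il12a*. For *Il18r1* the 137 bases between the end of *Il1rl1* and the start of *Il18r1* are given. The examples were picked and are not in all cases the genes with the largest differences. The sequences are from RefSeq's promoter windows, which matched 60 of the 77 genes, and each whole window was placed on mm9 by its single exact match. For *Il12rb2* the window ends 51 bases before the deposited gene start. Capitals mark matches on either strand to PU.1 letters (GAGGAAGT, in *Il18rap*) and Stat letters (TTCNNNGAA, in *Il12rb2*). Gata letters (AGATAA) and the Ebf1 and NF-kB letters, each with 2 unspecified bases in the middle, were also searched, and no match to them lies in these windows.
Il18r1 (chr1:40522260-40522396, plus strand): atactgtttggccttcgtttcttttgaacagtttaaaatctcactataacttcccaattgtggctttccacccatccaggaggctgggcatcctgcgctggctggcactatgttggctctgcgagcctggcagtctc
Il18rap (chr1:40571957-40572206, plus strand): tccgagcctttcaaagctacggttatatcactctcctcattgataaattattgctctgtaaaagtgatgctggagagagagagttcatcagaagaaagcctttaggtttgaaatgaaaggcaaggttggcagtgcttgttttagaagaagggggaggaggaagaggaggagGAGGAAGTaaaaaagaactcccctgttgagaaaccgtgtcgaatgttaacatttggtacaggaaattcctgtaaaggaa
Il12rb2 (chr6:67326183-67326432, minus strand): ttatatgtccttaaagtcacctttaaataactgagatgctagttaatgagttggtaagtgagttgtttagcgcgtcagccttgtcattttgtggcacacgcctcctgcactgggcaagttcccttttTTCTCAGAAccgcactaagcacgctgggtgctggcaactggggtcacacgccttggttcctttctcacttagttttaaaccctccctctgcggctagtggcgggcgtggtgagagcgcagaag
Il15ra (chr2:11626670-11626919, plus strand): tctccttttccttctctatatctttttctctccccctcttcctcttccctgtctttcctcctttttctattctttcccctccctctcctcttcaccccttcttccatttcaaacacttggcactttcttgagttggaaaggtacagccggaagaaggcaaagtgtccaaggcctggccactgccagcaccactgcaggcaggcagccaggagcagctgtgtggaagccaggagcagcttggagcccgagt
Il12a (chr3:68494316-68494565, plus strand): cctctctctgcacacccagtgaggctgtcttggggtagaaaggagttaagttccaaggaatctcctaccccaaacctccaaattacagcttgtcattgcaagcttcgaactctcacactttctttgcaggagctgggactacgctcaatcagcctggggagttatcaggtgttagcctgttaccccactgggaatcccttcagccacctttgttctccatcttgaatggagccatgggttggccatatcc

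Among all 32851 RefSeq windows, PU.1 letters occurred in 2.44%, Stat letters in 7.02%, Gata letters in 9.99%, NF-kB letters in 1.41% and Ebf1 letters in 0.779%. The receptor chains lower in pro-B cells had 12 windows, for 9 of the 12 genes. Stat letters were in 3 of these windows, those of *Il12rb2*, *Il1r2* and a window of *Il18r1* that lies further into the gene. PU.1 letters were in 1 (*Il18rap*), and Gata, NF-kB and Ebf1 letters in 0. The other receptor chains had 23 windows, with Stat letters in 1, Gata letters in 7 and PU.1 letters in 0. A match is a description of letters and not a bound site.

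The genes that carry interleukin signals were examined as a list of 39, namely partner chains, the ligand subunit *Ebi3*, Jak kinases, Stat factors, their inhibitors, the adaptors of the IL-1 and IL-17 receptors, and the proteases *Casp1* and *Casp4*. Of these, 16 (41.0%) were lower in pro-B cells at 2-fold, against 9.94% of all genes, and 3 (7.69%) were higher, against 6.34%. On the log2(FPKM + 1) scale only a gene at 1 FPKM or more in pre-pro-B cells can be counted as lower. In that library 36 of the 39 reached this level, against 49.5% of all genes, so the 2 shares of lower genes are not on an equal footing. Among the Stat genes, *Stat3* (gene FPKM 47.6 at the pre-pro-B stage and 10.3 at the pro-B stage), *Stat5a* (6.70 and 2.60) and *Stat5b* were lower. The 4 Jak kinases were within 2-fold, for instance *Jak1* (45.8 and 36.7). Of 9 inhibitors, *Socs1*, *Socs2*, *Socs3* and *Socs5* were lower, and *Socs2*, a target of Stat5, had 196 and 79.9. Partner chains that were lower were *Il2rg*, *Il6ra*, *Csf2rb* (4.87 and 0.0374) and *Csf2rb2*. On the IL-1 side, *Irak1* (22.5 and 7.29) and *Irak2* (4.97 and 0.220) were lower, and *Irak3*, which inhibits this pathway, was higher (0.270 and 4.22). *Traf3ip2*, the adaptor of the IL-17 receptors, was higher (3.24 and 11.7). *Casp1*, the protease that matures IL-18 and IL-1 beta, had 1.12 and 10.7, while *Casp4* and *Ebi3* were lower.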

How the data were processed

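RNA depleted of rRNA was sequenced as strand-specific, single end 97 bp reads from 1 library per cell type. The authors trimmed the reads, aligned them to mm9 with TopHat and estimated the deposited FPKM of 30485 RefSeq transcripts, with 95% model intervals, by Cuffdiff 2.1.1, using multi-read and bias correction and no scaling between libraries. The version is from the submitters' processing notes. A further deposited table holds the authors' fold changes, p-values and q-values and was not used.

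Symbols came from a RefSeq table (GRCm38.p6), which named 26173 of 26580 protein-coding accessions. FPKM were summed per symbol. Every transcript of the interleukin genes had the status OK, and none was a duplicated placement. Coordinates are 1-based on mm9, with strands from GENCODE vM1. Differences of 2-fold on log2(FPKM + 1) were called. The rule for named genes took each interleukin gene that reached 1 FPKM. Genes below it are named for their receptor complex, chromosomal neighbours or as the highest of their group, with values known. The genes and lists were chosen with earlier results of these data known. Promoter windows were searched on both strands. Alternatives were other pseudocounts, thresholds, filters, scalings and transcript choices. Python 3.11.15, numpy 2.4.6, pandas 2.3.3 and matplotlib 3.10.9 were used.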

Additional observations from a re-analysis of the deposited data

Results flagged for a closer look

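Non-coding transcripts of the interleukin genes lie outside the comparison, which used protein-coding ones. *Il15ra* has 2 such transcripts with an FPKM above the level that a count of 0 allows. In the pro-B library NR_073191 had 1.27 FPKM (interval 0 to 6.30) and NR_073192 had 0.235 (interval 0 to 1.25), and both were listed at 0 in the pre-pro-B library. The protein-coding transcripts of *Il15ra* were higher in pro-B cells as well.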

How the results depend on the processing

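The counts rest on few genes and on a pseudocount of 1. With a pseudocount of 0.1, 20 receptor chains were lower and 3 ligands were higher in pro-B cells, against 12 and 0. Shares over all genes were counted only at a pseudocount of 1 and 2-fold. At 4-fold, 1 receptor chain was higher and 1 ligand was lower. Without a pseudocount, among genes above 0 in both libraries, 4 receptor chains were higher and 1 ligand was lower. With an FPKM threshold of 5, 3 receptor chains reached it in pro-B cells, against 7 at a threshold of 1. The other alternatives left these counts within 1.5 times. Of 138 log2 differences of the 23 named genes under alternatives, 0 changed sign. Each was set against a wide range, from opposite limits of Cuffdiff's intervals in both libraries, summed per gene, at a pseudocount of 1. Within it stayed 127, and 11 moved beyond it. These 11 were at a pseudocount of 0.1 or in TPM, where the scale differs from that of the range. TPM scaling shifted log2 ratios without a pseudocount by -0.09 and median-ratio scaling by 0.09. With a pseudocount of 1 added to TPM, differences of low genes moved further, for example *Il10ra* from -4.77 to -6.16 and *Il27ra* from 1.38 to 2.16. *Il12a* moved from -2.41 to -2.53. In TPM 16 receptor chains were lower, against 12. No paired analysis was possible because each cell type has 1 library, and for the same reason no library could be left out.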
